A study of Mus musculus with 10 samples.

Results

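The data described here are the gene expression profiles of 5 control libraries of basal keratinocytes from between the hair follicles of mouse back skin, out of 10 libraries in the series. They were chosen by their labels alone: 3 are the controls of an Eed knockout (Eed controls 1 to 3) and 2 are the controls of a Ring1a/b double knockout (Ring1 controls 1 and 2). The knockout libraries were not used. The 2 deposited tables were joined on their Ensembl identifiers, which gave 17756 protein-coding genes listed in both, out of 18502 and 18344 listed in each.

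All 5 libraries came from mice at postnatal day 71. Per the labels, shaved back skin was treated from postnatal day 50 with 4-hydroxytamoxifen, the drug that switches on an inducible Cre recombinase, at 20 mg per ml and 100 µl a day for 4 days. Trypsin released the cells, which were sorted as positive for EpCAM and Sca1 and high in α6-integrin, and amplified total RNA was sequenced. Both control groups carry only the genotype label Control. The sources used here give neither the Cre driver, the alleles of the controls, the strain nor the sex. They also do not say if libraries came from separate mice, so p-values below measure only the spread between these samples, which may be technical. Recovered reads numbered 34607227, 39006853 and 32667439 for Eed controls 1 to 3 and 25158144 and 7162907 for Ring1 controls 1 and 2. Ring1 control 2 was therefore the shallowest, and a gene without a read could have had up to 3 reads by chance, which is 0.0769 reads per 1000000 reads (RPM) in the deepest library and 0.419 in the shallowest. Eed control 2 stood apart from the other Eed controls: 983 and 955 genes differed by over 1 on the log2 scale between it and Eed controls 1 and 3, against 268 between those and 751 between the Ring1 controls, of 13373 genes.

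The basal layer holds the dividing cells of the epidermis. They are tied to the basement membrane by hemidesmosomes, built on α6β4 integrin and type XVII collagen, and carry keratins 5 and 14 as their filaments, under the control of the transcription factor p63. When a cell leaves the layer it switches to keratins 1 and 10 and begins to make the cornified envelope. Polycomb complexes hold many developmental regulators silent in such cells: PRC2, with Eed as a core subunit, methylates histone H3, and PRC1, with Ring1 and Rnf2 as its ligases, ubiquitinates histone H2A.

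A few 250-base stretches upstream of a transcription start are shown first, because the genes they belong to mark the extremes described below. Krt5 was at the top of the ranking, Pax7 and Neurog2 had no read in any control library, and Hoxd10 had reads in 1 control set only. The sequences are from RefSeq on GRCm38.p6, written 5′ to 3′ on the gene's strand, with each CpG in capitals. They lie at chr15:101712906-101713155 on the minus strand (Krt5), chr4:139832969-139833218 on the minus strand (Pax7), chr3:127632886-127633135 on the plus strand (Neurog2) and chr2:74691641-74691890 on the plus strand (Hoxd10).
Krt5: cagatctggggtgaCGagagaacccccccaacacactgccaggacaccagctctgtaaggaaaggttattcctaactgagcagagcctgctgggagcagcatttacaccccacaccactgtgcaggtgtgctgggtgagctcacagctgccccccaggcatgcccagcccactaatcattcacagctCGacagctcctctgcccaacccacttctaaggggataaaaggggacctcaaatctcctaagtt
Pax7: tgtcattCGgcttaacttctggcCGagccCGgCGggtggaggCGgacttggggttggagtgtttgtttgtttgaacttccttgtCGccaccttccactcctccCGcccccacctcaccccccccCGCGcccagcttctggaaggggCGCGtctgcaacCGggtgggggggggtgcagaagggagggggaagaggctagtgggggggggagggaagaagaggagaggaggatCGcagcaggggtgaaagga
Neurog2: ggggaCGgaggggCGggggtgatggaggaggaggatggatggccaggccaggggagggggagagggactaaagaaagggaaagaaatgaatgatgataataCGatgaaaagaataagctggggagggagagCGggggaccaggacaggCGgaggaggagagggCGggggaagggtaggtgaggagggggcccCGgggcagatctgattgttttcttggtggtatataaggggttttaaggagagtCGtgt
Hoxd10: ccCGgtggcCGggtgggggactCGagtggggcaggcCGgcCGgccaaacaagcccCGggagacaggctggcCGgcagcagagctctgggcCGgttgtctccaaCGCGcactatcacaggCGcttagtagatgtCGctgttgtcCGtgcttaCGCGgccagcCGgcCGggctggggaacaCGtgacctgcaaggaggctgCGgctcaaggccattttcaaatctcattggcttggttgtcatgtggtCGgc
The Krt5 stretch holds 2 CpG, the Pax7 stretch 13, the Neurog2 stretch 8 and the Hoxd10 stretch 20. The median over the 13582 joined genes with an entry was 13, and 44.9% of them held 15 or more. An entry was found for 76.5% of the joined genes, which is too few for a comparison of promoters between silent and expressed regulators, and none is made.

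The expression programme of the control cells was led by basal keratins. To compare genes with each other, reads were divided by the length of all exons of the gene and scaled to the same total in each library, which is called the length-scaled level below. Krt5, the basal type II keratin, had a level of 19000, 25484 and 22936 in the Eed controls, and of 15118 and 14841 in the Ring1 controls. It ranked between 1 and 9 of all genes in each library. Krt14, its type I partner, had a level of 20505, 20562 and 21911 in the Eed controls, and of 13138 and 9371 in the Ring1 controls. It ranked between 2 and 13. For both keratins every Ring1 control was below every Eed control on this scale. On the quantile-normalised values of the test described further on, the sets overlapped for Krt5 and not for Krt14, and neither difference passed (adjusted p = 0.77 for Krt5 and 0.086 for Krt14, limma with Benjamini-Hochberg adjustment). B2m, the light chain of MHC class I, ranked between 4 and 7, and Krt15, a keratin of basal cells and follicle stem cells, between 7 and 21.

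Without the mitochondrially encoded genes, the 25 genes with the highest median percentile within a library also held Krt10, Krtdap and Perp of keratinocyte differentiation and adhesion, and 9 ribosomal protein genes of the Rps and Rpl series. The remainder included Rplp1 (an acidic ribosomal protein), Eef1a1 (a translation elongation factor), the metallothionein Mt2, S100a11, the lipid carrier Apoe, the mitochondrial leucyl-tRNA synthetase Lars2 and 3 immediate early genes, Zfp36, Egr1 and Fos. Lars2 was at 23513, 28140 and 26292 RPM in the Eed controls, above Krt5 at 12185, 18244 and 14614. Whether all reads counted for Lars2 come from its mRNA was not tested. Of the 100 highest genes, 69 were shared by all 5 libraries, 83 by the 3 Eed controls and 88 by the 2 Ring1 controls. The 100 genes with the most reads took 23.2% to 29.5% of the reads of a library.

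The markers of the sort and of the basal layer were high in every library. Epcam RNA was at 113, 144 and 119 RPM in the Eed controls, and at 135 and 101.1 in the Ring1 controls. Ly6a, which encodes Sca1, was at 254, 494 and 316, and at 229 and 208. Itga6, the α6 integrin, was at 1863, 1263 and 1843, and at 1320 and 1131. Trp63, which encodes p63, was at 1644, 1439 and 1791 in the Eed controls and at 1333 and 1653 in the Ring1 controls. The sets overlapped for Epcam, Itga6 and Trp63 and not for Ly6a, and none of these 4 passed the test. All 20 genes of the basal keratinocyte list reached 1 RPM in every library, with a median percentile of 98.2.

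**Figure D1:**
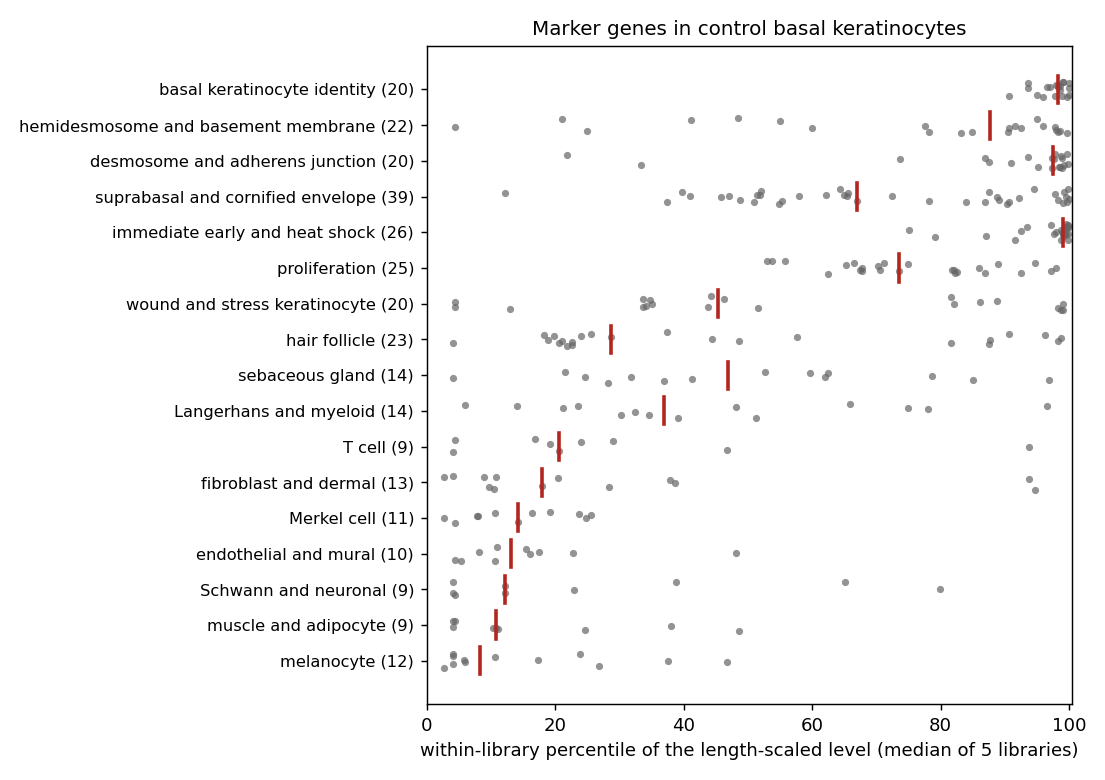
Each point is 1 gene of the list named on the left, with the number of genes in brackets, and the x axis gives its percentile within a library, as the median over the 5 control libraries. Red bars are list medians: 98.2 for the basal keratinocyte list, 99.1 for immediate early and heat shock genes, and 8.34 for melanocyte genes, the lowest.

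Adhesion genes were nearly as high. Desmosome and adherens junction genes had a median percentile of 97.5, led by Perp, Dsp, Dsc3 and Pkp1, with the simple-epithelial plakophilin Pkp2 lowest at 21.9. Hemidesmosome and basement membrane genes had a median percentile of 87.6. Col17a1, the type XVII collagen, was at 3844, 3941 and 3588 RPM in the Eed controls and at 3304 and 3328 in the Ring1 controls. The lowest member was Nid2, a nidogen of the basement membrane, at percentile 4.44, with 0 to 0.558 RPM.

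Differentiation genes were present, at unequal levels. Of 39 joined suprabasal and cornified envelope genes, 31 reached 1 RPM in every library, with percentiles from 12.2 to 99.9 and a median of 66.9. Krt10, the suprabasal type I keratin, was at 4744, 6163 and 3384 RPM in the Eed controls, and at 1088 and 1281 in the Ring1 controls. Rptn, which encodes repetin, was the only member under 1 RPM in all 5. Proliferation genes were all present, with 25 of 25 at 1 RPM or more everywhere and a median percentile of 73.6. Mki67, a marker of cycling cells, was at 857, 758 and 988 in the Eed controls and at 913 and 1250 in the Ring1 controls. The cyclin-dependent kinase inhibitor Cdkn2a, by contrast, was nearly silent, with 0.0289, 0.0256 and 0 RPM in the Eed controls, against 0.358 and 0 in the Ring1 controls.

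Immediate early and heat shock genes stood among the highest genes of these sorted cells. All 26 reached 1 RPM in every library, and their median percentile of 99.1 was above that of the basal list. Their summed level was 37883, 30603, 35649 and 34867 RPM in Eed controls 1 to 3 and Ring1 control 1, and 14999 in Ring1 control 2. Fos was at 3380, 3336 and 3439 in the Eed controls, and at 2926 and 1583 in the Ring1 controls. Egr1 was at 6749, 6570 and 5887, and at 6126 and 2806. In both, Ring1 control 2 was the lowest library.

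The 5 genes that differed most between the Ring1 controls, among genes with a mean of at least 10 RPM, were all lower in Ring1 control 2: Mlf1, Klf2, Arc, Fosl1 and Depp1, by 3.31 to 3.60 on the log2 scale. Arc and Fosl1 are activity-induced genes. Fosl1, an AP-1 subunit, was at 507 RPM in Ring1 control 1 and 51.8 in Ring1 control 2, and at 473, 148 and 572 in the Eed controls. The Eed controls differed most in the Y-linked genes Eif2s3y and Ddx3y, then in Fam166a, Slc15a2 and Ccdc184. Eif2s3y was at 95.7 and 50.5 in Eed controls 1 and 2, at 0.184 in Eed control 3, and at 79.2 and 34.2 in the Ring1 controls. Ddx3y was at 76.6 and 52.1, at 0.582, and at 47.9 and 18.7 in the same order. Eed control 3 was thus nearly without reads of these Y-linked genes, unlike the other libraries of both sets. Fam166a, Slc15a2 and Ccdc184 were lowest in Eed control 2, at 0.872, 0.179 and 0.487 RPM. Over the 13373 tested genes the median SD on the log2 scale was 0.240 among the Eed controls and 0.191 between the Ring1 controls. The first rests on 3 libraries and the second on 2, so the values cannot show which set was tighter.

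Markers of other cells of the skin were low by the median of their lists, but some lists held high members. The median percentile was 8.34 for melanocytes, 10.7 for muscle and adipocytes, 12.3 for Schwann cells and neurons, 13.1 for endothelial and mural cells, 14.2 for Merkel cells, 17.9 for fibroblasts and 20.6 for T cells. The highest member stood at percentile 94.6 for fibroblasts, 93.7 for T cells and 79.9 for Schwann cells and neurons. Fibroblast genes summed to 226 to 294 RPM in the Eed controls, and to 297 and 255 in the Ring1 controls. Of 12 joined melanocyte genes, 6 were under 1 RPM in every library. Their summed level was 18.8 to 25.9 in the Eed controls, against 21.3 and 30.7 in the Ring1 controls, and Slc45a2 had no read. Merkel cell genes summed to 4.77 to 8.47 and to 5.61 and 10.1, and Sox2 had no read. Langerhans and other myeloid genes had a median percentile of 36.9, with 6 of 14 at 1 RPM or more everywhere. That list holds Epcam, which the sorted cells share, and the MHC class II genes Cd74 (10.8 to 45.5 RPM over the 5 libraries), H2-Ab1 and H2-Eb1. Hair follicle genes had a median percentile of 28.8, led by Gata3, Postn, Lgr6 and Lrig1, and sebaceous gland genes one of 47.0, led by Scd1, Fasn and Dgat2, which act in fatty acid and triglyceride synthesis. The median percentile over all joined genes was 50.2, so the sebaceous gland list was close to it.

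Signalling genes followed a similar split between a few high members and silent ones. Of 16 EGF and FGF receptors and ligands, 14 reached 1 RPM everywhere, led by the ligand Epgn and the receptors Fgfr2, Egfr and Erbb3, while Erbb4 and Fgfr4 stayed under it everywhere. In the Notch pathway the target Hes1, the ligands Jag2 and Jag1 and the receptor Notch1 led, and the ligand Dll4 was at 0.119 RPM at most. In the Wnt pathway, 25 of 34 genes reached the threshold, led by the ligands Wnt4, Wnt10a and Wnt3 and the receptor Fzd6. Of the signals keratinocytes can send to melanocytes, Bmp4 was highest and Kitl, the ligand of Kit, was at 14.6, 8.51 and 20.6 in the Eed controls and at 19.8 and 13.5 in the Ring1 controls.

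All PRC1 genes listed were expressed, 23 of 23, as were 11 of 12 PRC2 genes by the same threshold. Eed was at 54.7, 33.3 and 51.7 RPM in the Eed controls, and at 76.8 and 82.0 in the Ring1 controls. Rnf2 was at 54.2, 37.8 and 47.2, and at 51.5 and 56.3. Ring1 was at 21.04, 17.8 and 26.5 in the Eed controls, and at 5.05 and 17.7 in the Ring1 controls. Every Ring1 control was above every Eed control for Eed, and below for Ring1, and none of the 3 genes passed the test (adjusted p = 0.084, 0.68 and 0.13 for Eed, Rnf2 and Ring1, limma).

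Transcription factors were sorted into 29 families by their symbols. Among 353 members in the joined tables, 176 (49.9%) reached 1 RPM in every library and 103 (29.2%) stayed under it in every library. Over all 17756 joined genes these shares were 66.6% and 18.5%. Because a table lists only genes with a read in at least 1 of its libraries, knockouts included, a regulator that was silent in all of them is not in these counts: the families have 406 protein-coding members in the GENCODE M21 annotation.

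Some small families were on in all their joined members. Every joined member reached the threshold in every library in AP-2 (4), Grainyhead and OVOL (6), p53 (3), AP-1 and Atf3 (8) and CEBP (5). The annotation has 5 AP-2, 7 Grainyhead and OVOL and 6 CEBP genes, so not every member of these is covered. IRF (8 of 9), STAT (6 of 7) and Iroquois (5 of 6) were nearly complete. With 66.6% of all joined genes on and families this small, no common theme is read from them. The highest regulators by median percentile included Fos, Atf3, Fosb, Jun, Klf4, Klf6, Fosl1, Nr4a1, Trp63, Gata3, Junb, Hes1, Klf5 and Jund, followed by Id1, Pou2f3, Foxn3, Id3 and Rxra. Fos, a subunit of AP-1, ranked between 20 and 40 of all genes in each library. Id1, an inhibitor of basic helix-loop-helix factors, ranked between 390 and 622 in 4 libraries and 4135 in Ring1 control 2. Trp63 ranked between 150 and 239, and Gata3, a factor of epidermal and follicle lineages, between 192 and 295.

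**Figure D2:**
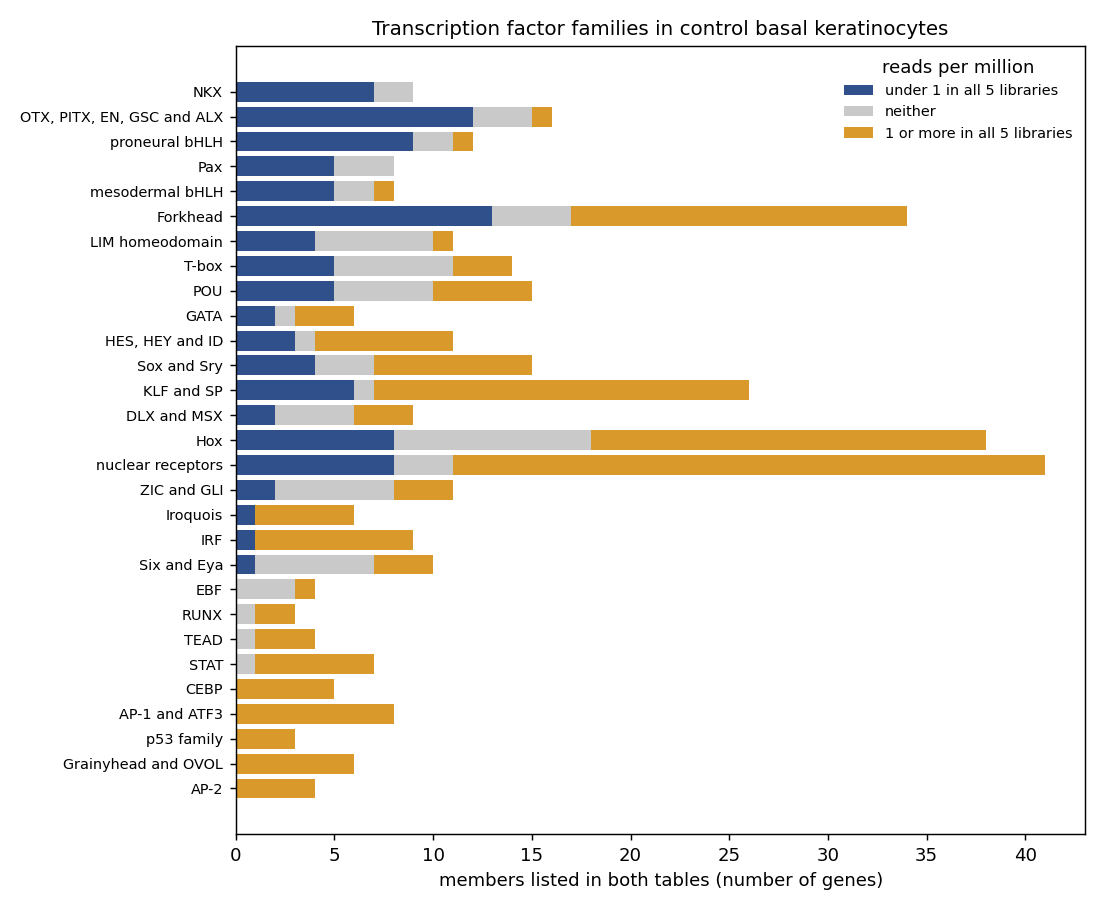
Bars give the number of genes of each transcription factor family listed in both tables, split by level: under 1 RPM in all 5 control libraries, 1 or more in all 5, or neither. NKX, with 7 of 9 low, stands at the top, and AP-2, with 4 of 4 expressed, at the bottom.

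The families with the largest low share act mostly in other organs and lineages. In NKX, 7 of 9 joined members were under 1 RPM in every library and none was on. The paired-type group of OTX, PITX, EN, GSC and ALX had 12 of 16 low, the proneural basic helix-loop-helix genes 9 of 12, the mesodermal ones 5 of 8, and Pax 5 of 8 with none on. Exceptions within these groups were Ascl2, at percentile 78.2, and Mesp2, at percentile 68.4. No read at all was found for 8 of the 353 joined regulators: Hoxd3, Pax7, Sox2, Sp5, Lhx8, Gsc, Shox2 and Neurog2. By the listing rule above, they are listed through reads in knockout libraries, and regulators absent from either table are not covered. Pax7 directs muscle satellite cells, Neurog2 neuronal fate and Sox2 pluripotent and Merkel cells. Among the stretches of these 8 regulators, CpG counts ran from 4 (Lhx8) to 27 (Sox2), and the printed ones of Neurog2 and Pax7 lie between.

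Families with a mixed pattern kept a subset on. Forkhead genes had 17 of 34 on, led by Foxn3 and Foxk1, and 13 low, among them Foxa1, Foxa3 and Foxd1. In KLF and SP, 19 of 26 were on, led by Klf4, Klf6 and Klf5, and Sp7, Sp8 and Klf1 were low. Sox genes had 8 of 15 on, led by Sox21, Sox9 and Sox7. Of 41 nuclear receptors, 30 were on, led by Nr4a1, Rxra, Rora and Nr1d1. Of 6 GATA genes, Gata3, Gata6 and Gata4 were on.

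Hox genes, which give cells a position along the body axis, were on in part and by cluster. Of 38 joined rows, 20 were at 1 RPM or more in every library: 8 of 11 in HoxA, 8 of 10 in HoxB, 4 of 9 in HoxC and 0 of 8 in HoxD. Hoxa7 was the highest, at 108, 175 and 103 RPM in the Eed controls and at 99.6 and 128 in the Ring1 controls. Hoxc8 followed in rank, at 20.2, 52.3 and 34.2, and at 47.3 and 41.7, then Hoxa5, at 25.8, 22.6 and 20.6, and at 39.4 and 43.1. The sets overlapped for Hoxa7 and Hoxc8 and not for Hoxa5, whose difference did not pass the test (adjusted p = 0.070, limma).

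HoxD separated the control sets. Its 8 rows summed to 0.434, 1.44 and 1.62 RPM in the Eed controls, and to 16.3 and 25.7 in the Ring1 controls. Hoxd10 had 0 reads in each of the 3 Eed controls, and 65 and 45 reads in the Ring1 controls, or 2.58 and 6.28 RPM. Against a floor of 3 reads in each Eed control it was at least 52.1-fold higher. Hoxd11 had 1 read in Eed control 1 and 0 in the other Eed controls, against 49 and 51 reads in the Ring1 controls. Hoxd13 had 0 reads in the Eed controls, against 32 and 29 in the Ring1 controls, at least 31.2-fold more. Hoxd9 was at 0.173, 0.0769 and 0.429 RPM, against 3.86 and 3.21. Hoxd8 was at 0.202, 1.36 and 0.735, against 6.60 and 4.47. For these 5 genes both Ring1 controls were above every Eed control. They reached the level needed for the test below through the Ring1 controls alone, so that they had to differ, and no test is given for them. Hoxd3 and Hoxd4 stayed under 1 RPM.

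Posterior Hox genes were then summed over the 4 clusters. Hox rows of paralogue groups 9 to 13, the posterior groups, summed to 7.28, 10.6 and 7.41 RPM in the Eed controls and to 27.2 and 53.6 in the Ring1 controls. Those of groups 1 to 8 summed to 285, 367 and 263, against 319 and 379, and so overlapped. Of the 20 rows of groups 1 to 8 that were tested none was called, against 6.15% of all genes tested. This grouping was made after the values were seen.

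**Figure D3:**
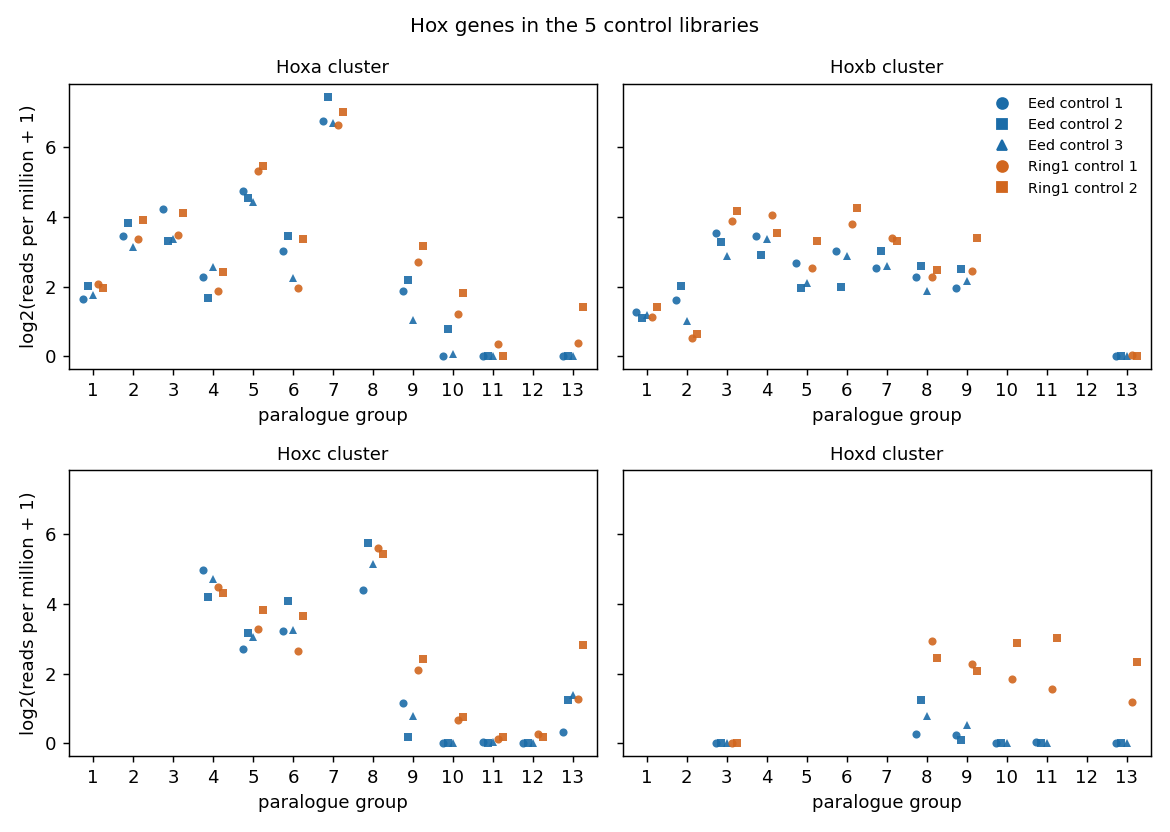
Each point is 1 control library (blue for Eed controls, orange for Ring1 controls), the x axis is the paralogue group within each Hox cluster and the y axis is log2(RPM + 1). Orange points lie above all blue points for Hoxd8 to Hoxd11 and Hoxd13, while the sets overlap at Hoxa7 and Hoxc8, and the 2 Hoxd4 rows, both under 1 RPM, are not drawn.

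The 2 control sets were next compared by rank across all genes. Their libraries correlated less between sets (Spearman rho 0.930 to 0.958 over 13373 genes) than within a set (0.964 to 0.985 among the Eed controls and 0.974 between the Ring1 controls). These values are over genes of the same libraries and serve as a description. For the test, libraries were quantile normalised, so that only the rank of a gene within its library counts, and limma was fitted on log2(RPM + 1). Genes with a mean of at least 1 RPM were tested and calls had an adjusted p under 0.05. Differences are given below as Ring1 controls minus Eed controls on that log2 scale. Of 13373 genes, 823 were called, which is 6.15%: 291 (2.18%) were higher in the Ring1 controls and 532 (3.98%) were lower. For 5694 genes (42.6%) the 2 sets did not overlap on the normalised values.

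The number of calls rested on the small Ring1 set. Without Ring1 control 1, 35 genes were called, without Ring1 control 2, 4 genes, and without Eed control 2, 1261. With a set of 1 library its spread is taken to be that of the other set. The split between higher and lower also moved with scaling: it was 348 to 370 without quantile normalisation, where the median of all genes moved to 0.17, and 162 to 509 with TMM scaling. Control set, deposited table and any batch cannot be told apart, since each table was made from 1 set.

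The largest differences upward were in Igf2, Olfr1309, Krt2, Lrrn1, mt-Nd3, Mcam, Acsm2, Mns1, Flrt1 and mt-Nd2. A gene was named only at a mean of at least 5 RPM over the libraries. Igf2, Olfr1309, Krt2, Lrrn1, Mcam, Acsm2 and Mns1 averaged less than that in the Eed controls. They reached it through the Ring1 controls alone, so their choice leaned toward a rise. Igf2 on chromosome 7, an imprinted growth factor gene, was at 1.79, 1.21 and 0.735 RPM in the Eed controls, and at 56.1 and 43.6 in the Ring1 controls. The difference was 4.34 ± 0.34 (SE, adjusted p = 0.00072, limma). Krt2, a keratin of the upper epidermis, was at 1.27, 4.10 and 4.07, against 104 and 31.7, a difference of 3.77 ± 0.615 (adjusted p = 0.020). Olfr1309, listed as an olfactory receptor gene, was at 4.57, 2.85 and 4.44, against 100.0 and 78.9. Of 250 olfactory receptor genes tested, 2 were higher and none was lower, against 2.18% and 3.98% of all genes. Mcam, a surface adhesion molecule also made by endothelial and melanoma cells, was at 3.55, 0.282 and 3.98, against 25.8 and 13.7, and lost its call under 7 of the alternatives.

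The largest differences downward were in Tpm3-rs7, AC154187.2, Nutf2-ps1, Ugt1a6b and 6 histone genes. Tpm3-rs7, a retrocopy related to the tropomyosin gene Tpm3, was at 78.0, 139 and 86.2 RPM in the Eed controls, and at 1.35 and 1.26 in the Ring1 controls, a difference of -5.61 ± 0.30 (adjusted p = 0.00011, limma). AC154187.2 was at 49.5, 51.3 and 18.7, against 0 reads in both Ring1 controls, and so was at least 148.1-fold higher in the Eed controls by a floor of 3 reads per library. AC154187.2, Nutf2-ps1, Ugt1a6b and Hist1h2bm reached the level for the test through the Eed controls alone. Nutf2-ps1, Tpm3-rs7 and the histone genes have near-identical copies that can share reads, so their levels are uncertain. Of these 20 genes, Olfr1309, Tpm3-rs7 and Hist1h4d kept an adjusted p under 0.05 in every alternative, and the others lost it in at least 1 when a Ring1 control was left out.

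**Figure D4:**
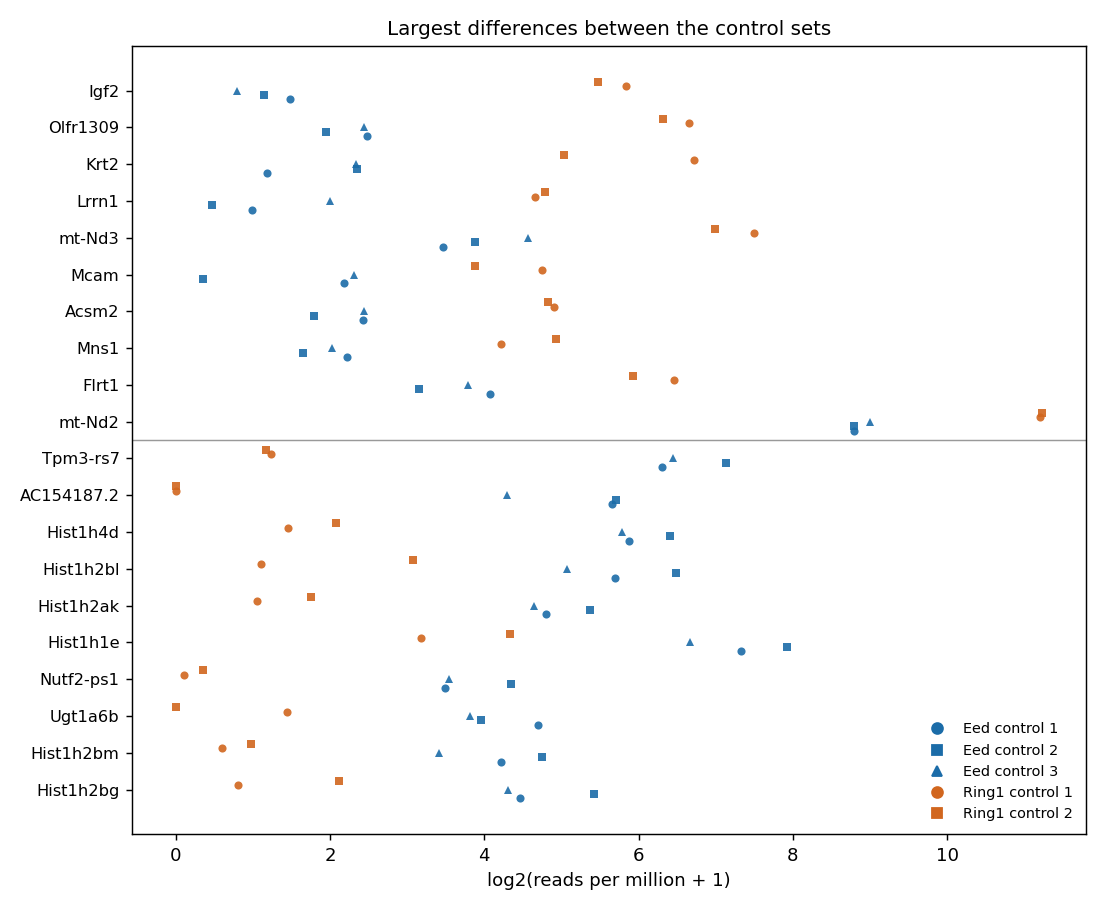
The x axis is log2(RPM + 1) in each of the 5 control libraries (blue for Eed controls, orange for Ring1 controls) for the 10 largest differences in each direction, with the line parting genes higher from genes lower in the Ring1 controls. The sets do not overlap for any of the 20 genes, as the rule that chose them required.

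Histone genes were the largest group among those lower. Replication-dependent histone mRNAs, which lack a poly(A) tail and are made in S phase, were looked at as a group after these differences were seen. Of 54 joined genes 37 were tested: 26 were lower in the Ring1 controls, 1 (Hist1h2bc) was higher, and the median difference was -1.90, against 3.98% lower, 2.18% higher and a median of 0.032 over all genes tested. Without Ring1 control 1, 3 were lower, and without Ring1 control 2, 1 was. Their summed level was 646, 877 and 484 RPM in the Eed controls, against 108 and 174 in the Ring1 controls. Of the 54 genes, 14 were at 1 RPM or more in every library. Some of those tested, such as Hist1h2bm at 0.517 and 0.977 RPM in the Ring1 controls, reached the test through the Eed controls alone. Such genes had to differ, so the counts and the median above lean toward lower. Hist1h4d was at 57.9, 84.1 and 54.3, against 1.75 and 3.21, and Hist1h1e, a linker histone, was at 159.8, 241 and 100.4, against 8.07 and 19.1. Of 25 proliferation genes, 3 were lower (Ube2c, E2f1 and Plk1), 1 was higher (Cenpe), against 3.98% and 2.18% of all genes, and none was called after the adjustment for GC content and length described below. Mki67, Pcna and Top2a did not pass the test, with differences of 0.50, 0.45 and 0.28.

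Mitochondrially encoded genes moved the other way. All 13 had a higher value in both Ring1 controls than in every Eed control, 11 were called higher, against 2.18% of all genes, and the median difference was 1.90. Without Ring1 control 1, 3 were called, and without Ring1 control 2 none, with medians of 2.05 and 1.89. Together they took 2.34%, 2.81% and 2.52% of the reads in the Eed controls, against 6.51% and 7.28% in the Ring1 controls. mt-Nd2, a subunit of respiratory complex I, was at 444, 443 and 512 RPM, against 2356 and 2399. Of 92 nuclear genes of oxidative phosphorylation tested, none was called higher and 17 were lower, against 2.18% and 3.98% of all genes, with a median difference of -0.37. That median was -0.25 without quantile normalisation and -0.22 without Eed control 2. Cytosolic ribosomal protein genes were also lower more often than higher, 20 against 3 of 80 tested, where all genes gave 3.98% and 2.18%, with a median of -0.35. That median was -0.55 without quantile normalisation, -0.75 with TMM scaling and -0.21 without Eed control 2. Leaving out either Ring1 control left no lower call in the oxidative phosphorylation and ribosomal protein lists. Rplp1 fell from a rank of 5 to 10 in the Eed controls to 55 and 58 in the Ring1 controls, a difference of -2.58 ± 0.28 (adjusted p = 0.0029, limma), while Rpl4, Rpl5 and Rpl29 were higher. The ribosomal and oxidative phosphorylation lists were also chosen after the differences were seen.

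Calls were unevenly spread over base composition and length of the transcripts. In the fifth of tested genes with the highest GC content, 315 were lower and 27 higher in the Ring1 controls, and in the fifth with the lowest, 7 were lower and 116 higher. Genes lower in the Ring1 controls had a median exon length of 2520.5 bases and a median GC content of 56.1%, those higher 4792 bases and 44.6%, and all tested genes 4568 bases and 49.2%. After smoothing out GC content and length in each library, an alternative added after these values were seen, 489 genes were called, 204 higher and 285 lower. In that fit 11 of 13 mitochondrially encoded genes were still higher, with a median of 1.94, 15 of 37 histone genes were lower, with a median of -1.34, and 11 ribosomal protein genes were lower and 4 higher. Of the nuclear oxidative phosphorylation genes 11 were lower and 2 higher, with a median of -0.11.

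**Figure D5:**
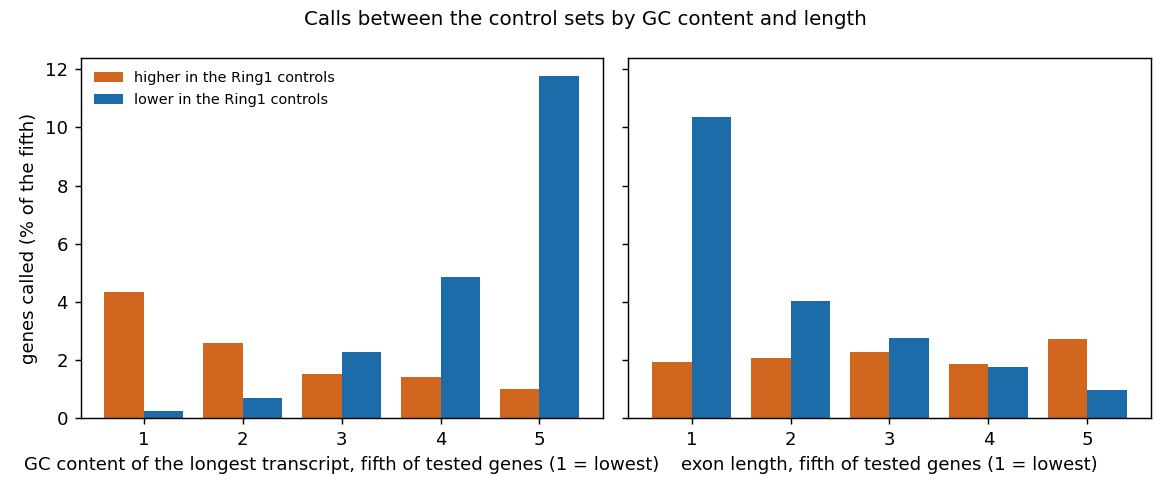
The y axis is the percentage of genes called higher (orange) or lower (blue) in the Ring1 controls, in 5 equal groups of the tested genes by GC content of the longest transcript (left) and by exon length (right). The share called lower is 11.8% in the group with the highest GC content and 0.262% in the group with the lowest.

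Some differentiation genes were lower in the Ring1 controls. Of 37 suprabasal and cornified envelope genes tested, 7 were lower, 1 (Krt2) was higher and 29 did not pass, against 3.98% and 2.18% of all genes. Among the 7, Sprr1b, at 0.437 and 0.140 RPM in the Ring1 controls, reached the level for the test through the Eed controls alone. The median difference of the list was -0.16. It was 0.19 without Ring1 control 2 and -0.58 without Ring1 control 1, with no call in either, 0.017 without Eed control 3, -0.66 without Eed control 2 and -0.087 without Eed control 1, so no direction is given for the list. Krt10 was lower by a difference of -1.81 ± 0.27 (adjusted p = 0.0096, limma), and Krt1, its partner, was at 2302, 3159 and 1709 RPM in the Eed controls, against 1064 and 829. Sbsn, which encodes suprabasin, was at 407, 493 and 443, against 188 and 149. In the basal list Krt15 and the P-cadherin gene Cdh3 were lower and 18 of 20 did not pass. Krt15 was at 4383, 5345 and 4952, against 2698 and 1951, a difference of -1.21 ± 0.22 (adjusted p = 0.017), which lost its call with TMM scaling, with edgeR, without the mitochondrially encoded genes and with either Ring1 control left out. Of the junction genes, Jup (plakoglobin) was lower and Dsc1 (desmocollin 1) higher.

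Stress genes and cell cycle inhibitors gave a few calls. Of 26 immediate early and heat shock genes 1 was called, against 6.15% of all genes tested. It was Junb, at 446, 395 and 490 RPM in the Eed controls and at 211 and 118 in the Ring1 controls. The list's median difference was -0.38 and turned to 0.049 without Ring1 control 2 and -0.99 without Ring1 control 1. Cdkn1a, which encodes the inhibitor p21, was at 876, 638 and 755, against 321 and 172, a difference of -1.67 ± 0.29 (adjusted p = 0.016, limma). Cdkn2d was lower too, and Cdkn1c, an imprinted inhibitor, was at 0.260, 0.282 and 0.827, against 5.05 and 3.77. Cdkn1c reached the level for the test through the Ring1 controls alone, so no test is given for it.

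Calls among signalling and Polycomb genes were 2 of 14 EGF and FGF genes, 2 of 29 Wnt genes and 1 of 23 PRC1 genes tested. Over all genes tested the share was 6.15%, and with lists this short no excess or lack of calls is read. No gene of these 3 lists was called with either Ring1 control left out. Nrg1, a ligand of ERBB receptors, was at 46.8, 18.1 and 48.1 RPM in the Eed controls and at 6.76 and 5.31 in the Ring1 controls (adjusted p = 0.010, limma), while Fgfr3 was higher. In the Wnt pathway the transcription factor gene Lef1 was higher, at 7.91 and 9.77 against 2.05, 1.51 and 2.91, and the ligand Wnt2, which reached the level for the test through the Eed controls alone, was lower. Among PRC1 genes Bmi1 was higher, at 41.9 and 30.7 against 9.83, 8.67 and 12.2 (adjusted p = 0.011). None of the 12 PRC2 genes and 11 Notch genes tested was called.

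Markers of other cells gave at most 1 call per list. Endothelial and mural genes gave 1 of 2 tested, and T cell genes 1 of 3. Hair follicle genes gave 1 of 14 (Lrig1, lower) and sebaceous gland genes 1 of 11. Over all genes tested the share was 6.15%. Pecam1, an endothelial and leukocyte adhesion molecule, was at 14.5, 4.08 and 12.8 RPM in the Eed controls, and at 39.0 and 39.4 in the Ring1 controls. The endothelial and mural list with Pecam1 summed to 8.64 to 19.4 in the Eed controls and to 41.8 and 44.1 in the Ring1 controls. Of its other 9 members Vwf, the von Willebrand factor, was the highest, at 1.51 to 2.66, and Cdh5, which defines endothelium, had no read in the Eed controls, against 0.0398 and 0.140 in the Ring1 controls. Cd3d, a T cell receptor subunit, was at 12.3 and 12.3 against 2.89, 3.13 and 2.08, while Cd3e was at 0.755 and 0.279 against 1.56, 1.05 and 1.71. The T cell list summed to 104 to 186 in the Eed controls and to 111 and 98.99 in the Ring1 controls. Of the melanocyte, Merkel cell, Langerhans and fibroblast lists, 5, 3, 11 and 7 genes were tested and none was called. These are too few genes for a lack of calls to be read. In bulk samples, fewer cells of a type and less RNA per cell cannot be told apart.

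Genes near the targeted loci were counted as well. Within 5000000 bases of Eed 0 of 32 tested genes were called, near Ring1 14 of 174 (8.05%) and near Rnf2 3 of 42 (7.14%), against 6.15% of all genes tested, so the shares near Ring1 and Rnf2 were close to that of all genes. The 14 genes near Ring1 on chromosome 17 included Cdkn1a and the MHC class I genes H2-Q6 and H2-Q7. H2-Q7 was at 1003, 714 and 1065 RPM in the Eed controls, and at 2061 and 2144 in the Ring1 controls, a difference of 1.24 ± 0.25 (adjusted p = 0.025, limma).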

How the data were processed

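RNA sequencing of sorted epidermal cells was analysed in the 5 control libraries. The submitters' processing notes name kallisto 0.42.5, DESeq2 3.11 and the build mm10. The authors deposited 1 table for each control set, whose values fit gene counts divided by a size factor and are treated as signal. Division of each control column by its smallest value above 0 gave whole numbers for 100% of genes (tolerance 1e-06). These recovered reads were used, which undoes the separate scaling of the tables. Strand handling is not given in the sources used here. The tables' other columns were not used, and 0 columns of samples were left unmapped.

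Of 17756 joined genes, 17751 matched GENCODE M21 (GRCm38) by identifier and 17113 with version. limma 3.58.1 (trend, robust) was fitted on quantile-normalised log2(RPM + 1) (RPM, reads per 1000000 reads) where a gene averaged 1 RPM or more. Each table holds 1 control set, so no test within 1 table compares them. Alternatives were other filters, pseudocounts, thresholds and scalings, normal scores, thinning, edgeR 4.0.16, DESeq2 1.42.0, a replicate block, the Y-linked level as a term, and each library left out. The scripts were tested on simulated data. Scripts used R 4.3.3 and Python 3.11.15.

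Named genes were the sort and basal markers; the 25 highest genes without mitochondrially encoded ones; per list up to 4 highest, 2 lowest and 4 with the smallest p; the 20 highest regulators and the Hox genes; the 10 largest called differences in each direction with a mean of at least 5 RPM, no overlap and no Gm or Rik symbol; the 5 genes that differed most within each set at a mean of at least 10; and Eed, Ring1 and Rnf2. Family members named beside their counts were named after their values were seen. The members and the 29 lists were chosen with earlier results of these data known. Some genes that this rule names are not reported here.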

Additional observations from a re-analysis of the deposited data

How the results depend on the processing

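Of the 13373 tested genes 3153 had an unadjusted p under 0.05, and the 823 calls became 387 with no filter, 545 with edgeR (143 higher and 402 lower in the Ring1 controls), 1503 with DESeq2, 489 with GC content and length adjusted, 115 at an adjusted p under 0.01 and 1617 under 0.1. Leaving out 1 library gave 4 to 1261 calls. With the replicate block there were 1416 calls, and 2 uncalled genes turned sign, Ddx3y to -1.17 and Kdm5d to -0.90. The deviations of same-numbered libraries correlated at 0.003 for number 1 and 0.089 for number 2, no label says that the numbers pair libraries, and the 2 sets share only 2 numbers. The genes without a read, 110 in all 5 libraries, became 338 after thinning to the shallowest library, 735 at up to 3 reads in each library, and 135 to 227 with 1 library left out. The median percentile of the basal keratinocyte list was 98.9 without division by length. The median difference of the mitochondrially encoded genes was 1.80 without quantile normalisation and 1.59 with TMM scaling. Apart from the settings that change the genes tested, the samples or the threshold, the cause of these shifts was not tested. Ring1 control 2 has 7162907 reads, which limits what can be said of genes with few reads there, and a set of 2 libraries limits every call.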

Other observations

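Genes listed in 1 table only were left out of the comparison, and some had reads in the controls. Why a gene is listed in 1 table only was not tested. Of 746 genes listed in the Eed table only, 515 had a read in an Eed control, the highest being Fam177a with 1083, 508 and 896 reads. Among them were the histone genes Hist2h3b with 509, 487 and 406 reads, Hist2h2aa1 with 467, 539 and 314, and Hist1h2ap with 328, 547 and 180. Of 588 genes listed in the Ring1 table only, 231 had a read in a Ring1 control, and the most reads of any was 151.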
